A study of Drosophila melanogaster with 24 samples.

Results

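Peaks that lie off the assembled chromosome arms of Drosophila melanogaster were described here for 4 subunits of the SAGA coactivator complex and for RNA polymerase II (Pol II). A peak belonged to this group when its scaffold in the dm3 assembly was not 2L, 2R, 3L, 3R, 4 or X, and no measured value entered this choice. There were 2713 such peaks among the 83085 peaks of the 14 deposited lists, or 3.27%. They fell on 9 scaffolds, which were grouped into 5 classes. The heterochromatic scaffolds 2LHet, 2RHet, 3LHet, 3RHet and XHet are called arm Het below, YHet is the heterochromatin of the Y, U and Uextra hold sequence that the assembly assigns to no chromosome, and M is the mitochondrial genome.

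The ChIP-seq libraries were made from fixed embryos of 1 to 3 h, staged under the microscope as 4 to 6, and no genotype, mutation or treatment was named for them. Antibodies were rabbit anti-Ada2b against residues in the first part of the protein (4 libraries), rabbit anti-Spt3 against the full length (3 libraries), rabbit anti-Sgf11 against the full length (3 libraries) and rabbit anti-Non-stop against an internal stretch (2 libraries). The mouse antibody 4H8, against the CTD repeat of Pol II phosphorylated at serine 5, was used for 2 libraries. The remaining 10 of the 24 samples were total chromatin, for which no peak list was analysed here. Each library is named by its factor and the number in its label. Libraries whose numbers share their first part are called a set, which is only a shared number. Set 1530 held 3 Ada2b and 2 Spt3 libraries, set 1760 held Ada2b and Spt3, set 1377 held 2 Sgf11 libraries, set 1924 held Sgf11 and 2 Non-stop libraries, and the Pol II libraries were 1188_2 and 1632_1. No set held both Ada2b or Spt3 and Sgf11 or Non-stop, so set and module cannot be told apart in comparisons between them. Nothing in the labels said whether libraries of a factor came from separate embryo collections, so p-values measure the spread between these libraries, which may be technical.

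SAGA is a modular complex that is brought to promoters. Its acetyltransferase module, with Gcn5 and Ada2b, acetylates histone H3, Spt3 belongs to the module that contacts TBP, and Non-stop, with Sgf11, is the deubiquitinase that removes ubiquitin from histone H2B. In Drosophila, Sgf11 and Non-stop also bind chromatin without the rest of SAGA. Pericentric heterochromatin is rich in satellites and transposons and poor in genes, but the genes it holds need that setting to be expressed. Unplaced scaffolds are mostly repeated sequence, some of it present in several copies in the assembly, so a read from them may have more than one place to align. Mitochondrial DNA carries no histones and lies outside the nucleus.

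Each list held between 1563 peaks (Ada2b 1530_3) and 12073 peaks (Non-stop 1924_2). No list held reads, so depth is unknown and a site without a peak may hold weak binding. Of the libraries, the 5 of set 1530 and Pol II 1632_1 stood apart on Uextra and, for set 1530, on M, as described below, and the comparisons of peaks off and on the arms are also given without set 1530, a choice made after seeing the data.

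Off the arms, every library had between 77 and 346 peaks, with a median of 169.5. Arm Het held the most, 1410 peaks or 52.0% of all peaks off the arms, followed by Uextra with 678, U with 527, M with 94 and YHet with 4. Arm Het, U and Uextra had peaks in all 14 libraries, M in 12 and YHet in 3. Within arm Het, 3LHet had 460 peaks, 2RHet 434, 3RHet 361, XHet 93 and 2LHet 62.

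**Figure D1:**
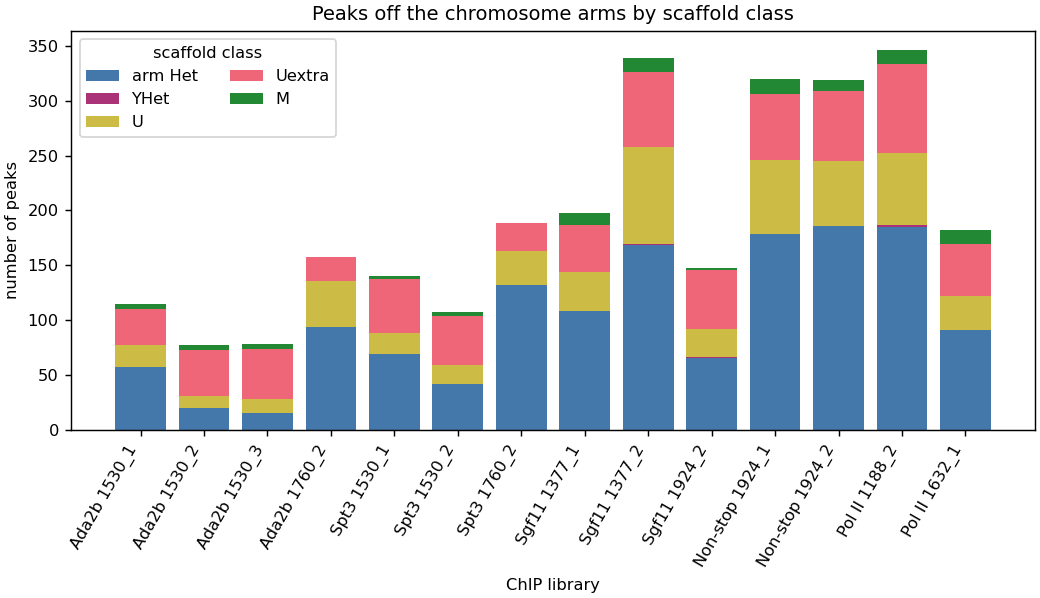
Number of peaks off the chromosome arms in each of the 14 ChIP libraries (x axis), stacked by scaffold class. Totals run between 77 (Ada2b 1530_2) and 346 (Pol II 1188_2), and Uextra makes up the larger part in Ada2b 1530_2 and 1530_3.

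Ada2b had 115, 77, 78 and 157 peaks off the arms in libraries 1530_1, 1530_2, 1530_3 and 1760_2. Spt3 had 140 in 1530_1, 107 in 1530_2 and 188 in 1760_2. For both factors the library of set 1760 had the most. Sgf11 had 198 in 1377_1, 339 in 1377_2 and 147 in 1924_2. Non-stop had 320 in 1924_1 and 319 in 1924_2, and Pol II had 346 in 1188_2 and 182 in 1632_1. The 2 Non-stop libraries were nearly equal, whereas the Sgf11 and the Pol II libraries differed among themselves by more than 100 peaks.

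As a share of the list, peaks off the arms made up 3.87% ± 0.89 (SD, n = 4) for Ada2b, 4.83% ± 1.98 (n = 3) for Spt3, 3.83% ± 1.25 (n = 3) for Sgf11, 3.19% ± 0.78 (n = 2) for Non-stop and 2.37% ± 0.92 (n = 2) for Pol II. The highest share was that of Spt3 1530_1 (6.91%) and the lowest that of Pol II 1632_1 (1.72%). None of the 5 comparisons between factors passed its test (exact two-sided permutation of libraries, adjusted by Benjamini-Hochberg over the 12 tests run), and those between Ada2b, Spt3 and Sgf11 could not, since the smallest p before adjustment was 0.0571 for 4 against 3 libraries and 0.1 for 3 against 3. Ada2b minus Spt3 was -0.95 percentage points (adjusted p = 0.617), Ada2b minus Sgf11 was 0.048 (adjusted p = 0.971) and Spt3 minus Sgf11 was 1.00 (adjusted p = 0.617, exact permutation). Pol II libraries averaged 2.37% and the 12 subunit libraries 3.99% ± 1.26, a difference of -1.61 points (p = 0.110, adjusted p = 0.220, exact permutation). Sgf11 and Non-stop together averaged 3.57% ± 1.03 (n = 5) and Ada2b and Spt3 together 4.28% ± 1.40 (n = 7), a difference of -0.71 points (adjusted p = 0.549, exact permutation). The sign of the Ada2b and Spt3 difference rested on one library: without Spt3 1530_1 it was 0.087, and Spt3 minus Sgf11 was then -0.039. Among the 1563 best-scoring peaks of every list, Sgf11 had 1.09%, 0.96% and 0.90% off the arms in 1377_1, 1377_2 and 1924_2, below every Ada2b and Spt3 library (2.82% to 4.99% and 4.22% to 8.13%). Non-stop, of the same module as Sgf11, had 4.03% and 2.75%, and Pol II 0.64% and 0.38%. This cut keeps the whole list of Ada2b 1530_3 but only the upper part of the longer lists. Ada2b minus Sgf11 was then 3.00 points and Spt3 minus Sgf11 5.10 points, each at the smallest exact p these libraries can give (0.0571 and 0.1).

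Peaks were sparser on arm Het as a whole, U and Uextra than on the arms. Scaffold lengths were not given, so the last base inside any peak was taken as the length reached. Per megabase reached, the median library had 10.7 peaks on arm Het, 3.09 on U and 1.61 on Uextra, and 45.8 on the arms. Within arm Het the median density was 13.8 peaks per megabase reached on 2LHet and between 9.18 and 11.2 on 2RHet, 3LHet and 3RHet. On XHet it was 68.7, but from a median of 6 peaks over only 0.087 megabases reached. The length reached can fall short of the scaffold, which raises the density, most of all where peaks are few. Whether XHet lay above the arms is therefore not known. M, with a median of 4.5 peaks, had 230.6 per megabase reached. The order of arm Het above U above Uextra held in 12 libraries, and in Ada2b 1530_2 and 1530_3 Uextra (1.46 and 1.60 per megabase) lay above U (1.10 and 1.30).

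Peaks off the arms were of similar width in every library, with medians between 302 and 375 bp, while those on the arms ran between 311 and 594.5 bp. The Pol II libraries differed the most, with medians of 369 bp off the arms and 594.5 bp on the arms in 1188_2, and of 375 and 492 bp in 1632_1. Sgf11 peaks were also narrower off the arms, with medians of 338.5 bp against 473 bp on the arms in 1377_1, 366 against 508 bp in 1377_2 and 302 against 331 bp in 1924_2. Only Ada2b 1530_2, Ada2b 1530_3 and Spt3 1530_1 had wider peaks off the arms. Over the 14 libraries the difference was -0.19 ± 0.26 on the log2 scale (off the arms minus arms, exact two-sided sign-flip test over libraries, p = 0.0138), which did not pass after adjustment (adjusted p = 0.0828). In the 9 libraries outside set 1530 it was -0.34 (unadjusted exact sign-flip p = 0.00391, the smallest 9 libraries can give). The widest peaks off the arms were on M, up to 16248 bp, and on U the peaks of set 1530 reached 7152 bp.

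The score of a peak, which follows its q-value, was ranked within its list so that 100 is the highest. Spt3 and Non-stop peaks off the arms ranked above those on the arms in every library, while Sgf11 peaks ranked below. The Spt3 medians were 65.1, 66.5 and 55.5 off the arms, against 49.2, 48.7 and 49.8 on the arms, in 1530_1, 1530_2 and 1760_2. Non-stop had 57.9 and 56.8 off the arms, against 49.6 and 49.7 on the arms. Sgf11 had 33.9, 39.5 and 37.0 off the arms, against 51.1, 51.1 and 50.6 on the arms, in 1377_1, 1377_2 and 1924_2. On chromosome 4 alone the Spt3 medians were higher than off the arms, at 79.7, 81.9 and 61.0 in the same order of libraries. Sgf11 was also higher there, at 53.7, 48.3 and 42.9, and Non-stop lower, at 48.7 and 39.7. Ada2b lay between 48.1 and 53.2 and Pol II at 48.9 and 49.0 off the arms. Over all libraries the difference was 0.92 ± 10.2 points (exact sign-flip test, p = 0.739), with 7 of 14 libraries above 0. Leaving out Spt3 1530_1 or Spt3 1530_2 turned its sign (-0.24 and -0.38). With 2 to 4 libraries a factor the smallest exact p for a difference between factors was 0.1 for Spt3 against Sgf11, so this contrast could not pass the threshold.

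**Figure D2:**
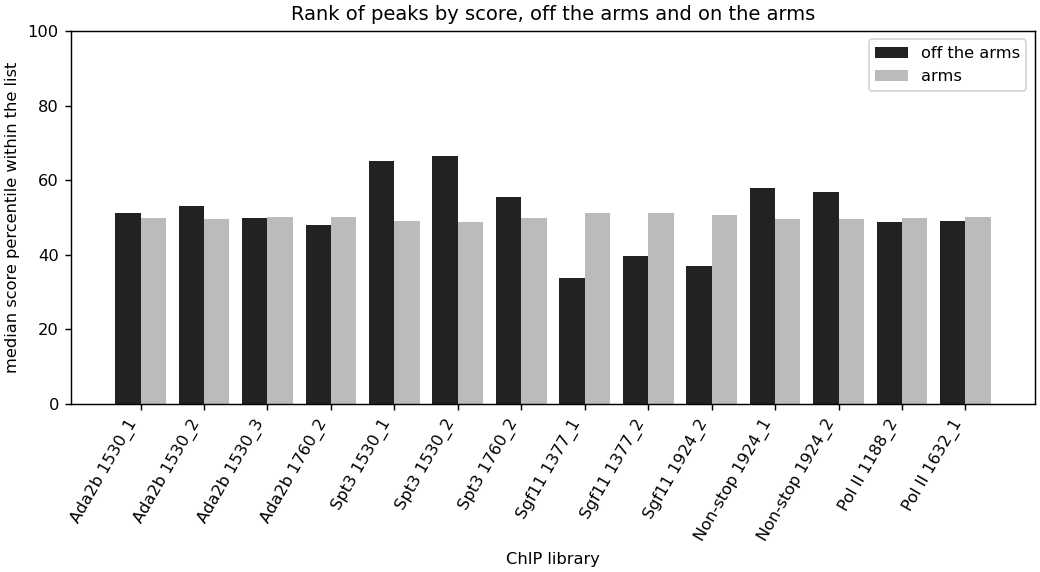
Median score percentile of peaks off the arms (black) and on the arms (grey) in each library, where 100 is the best-scoring peak of the list. The black bars exceed the grey ones in the 3 Spt3 and 2 Non-stop libraries and fall below them in the 3 Sgf11 libraries.

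The fold enrichment over the caller's background was lower off the arms for Sgf11, higher for Non-stop and nearly level for Spt3. Sgf11 medians were 3.20, 3.72 and 3.90 off the arms, against 4.33, 4.94 and 5.24 on the arms. Non-stop medians were 3.49 and 3.47 off the arms, against 3.06 and 3.12 on the arms. Spt3 medians were 2.61, 2.50 and 3.01 off the arms, against 2.59, 2.45 and 2.84 on the arms. Across the 14 libraries the difference was -0.11 ± 0.21 (log2, exact sign-flip test, p = 0.0687, adjusted p = 0.165). On arm Het the mean of the library medians was a score percentile of 53.6 ± 12.9, against 46.2 ± 10.6 on U and Uextra (n = 14 each), a difference of 7.34 ± 13.3 that did not pass the exact sign-flip test (p = 0.0630, adjusted p = 0.165). This difference was 4.43 outside set 1530, 3.90 with 1 mean per set and 3.47 against U alone. Of all peaks off the arms, 191 (7.04%) stood in the top 10% of their list, against 10.1% of peaks on the arms. By class this was 10.1% on arm Het, 4.42% on Uextra, 3.23% on U and 1.06% on M. Spt3 1530_1 had 27 of its 69 arm Het peaks (39.1%) in that top 10%, and Sgf11 1377_2 had 4 of 168 (2.38%). For Spt3 1530_2 and 1760_2 it was 16.7% and 22.7%, and for Sgf11 1377_1 and 1924_2 it was 3.70% and 3.08%. On chromosome 4, 15.0% of peaks stood in the top 10% of their list, with 27 of 73 (37.0%) in Spt3 1530_1 and 13 of 132 (9.85%) in Sgf11 1377_2.

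Recurrence was measured as the share of peaks in a library that overlapped, by at least 1 bp, a peak of another library of the same factor. Off the arms 1927 of 2713 peaks (71.0%) recurred, and 76.1 percent of all peaks in the series did. As a mean over libraries 76.1% ± 20.2 recurred off the arms and 82.0% ± 20.1 on the arms (n = 14 each), a difference of -5.83 ± 10.8 points that did not pass (exact sign-flip test, p = 0.0648, adjusted p = 0.165). Without Spt3 1760_2 the difference was -6.94 (unadjusted exact p = 0.0339) and without Non-stop 1924_2 it was -7.56 (unadjusted exact p = 0.0122).

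By class the differences from the arms were not alike. Arm Het minus arms was 1.77 points (exact sign-flip test, unadjusted p = 0.548), and U and Uextra minus arms was -14.0 points (unadjusted exact p = 0.00354). The gap was wider when only libraries of another set were allowed to count, a comparison chosen after seeing the data. Arm Het peaks differed from peaks on the arms by -2.55 points over 12 libraries, which did not pass (exact sign-flip test, p = 0.631). Peaks on U and Uextra recurred less often than those on the arms, by -45.7 points, lower in 12 of 12 libraries (exact sign-flip test, p = 0.000488, the smallest these libraries can give). All peaks off the arms together differed by -28.8 points (exact p = 0.00146). For U and Uextra the difference was -28.4 points in the 7 of these libraries outside set 1530 (exact p = 0.0156, the smallest they can give), and -34.9 points in the 5 Sgf11 and Pol II libraries, whose values use no library of set 1530 (exact p = 0.0625, the smallest 5 libraries can give). The recurrence values of libraries of a factor are not independent. Each was compared with the others both ways, so the same overlaps enter several values. The exact tests treat the values as separate, so their p-values may be too small.

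Ada2b peaks of set 1530 showed the contrast most plainly. All 57, 20 and 15 arm Het peaks of Ada2b 1530_1, 1530_2 and 1530_3 were found again in Ada2b 1760_2. Of their Uextra peaks, 27.3%, 11.9% and 8.70% were found again there, although 81.8%, 88.1% and 80.4% were found again within set 1530. On the arms 96.9%, 90.3% and 93.1% of the peaks of these libraries were found in Ada2b 1760_2. Spt3 showed the same split. In Spt3 1760_2, 98.6% and 100% of the arm Het peaks of Spt3 1530_1 and 1530_2 were found again, but 22.4% and 13.3% of their Uextra peaks. The list of Ada2b 1760_2 was longer than those of set 1530 (5446 peaks, against 1563 to 3262), and that of Spt3 1760_2 likewise (6311, against 2025 and 2328). The split was not seen in every library outside set 1530. Of arm Het peaks, 50.9%, 36.9% and 31.9% were found in another set for Sgf11 1377_1, Sgf11 1377_2 and Pol II 1188_2. On the arms it was 85.4%, 72.9% and 54.4%, and on Uextra 46.5%, 42.6% and 25.9%. For Sgf11 1924_2 and Pol II 1632_1 it was 100% and 98.9% on arm Het, and 57.4% and 44.7% on Uextra.

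**Figure D3:**
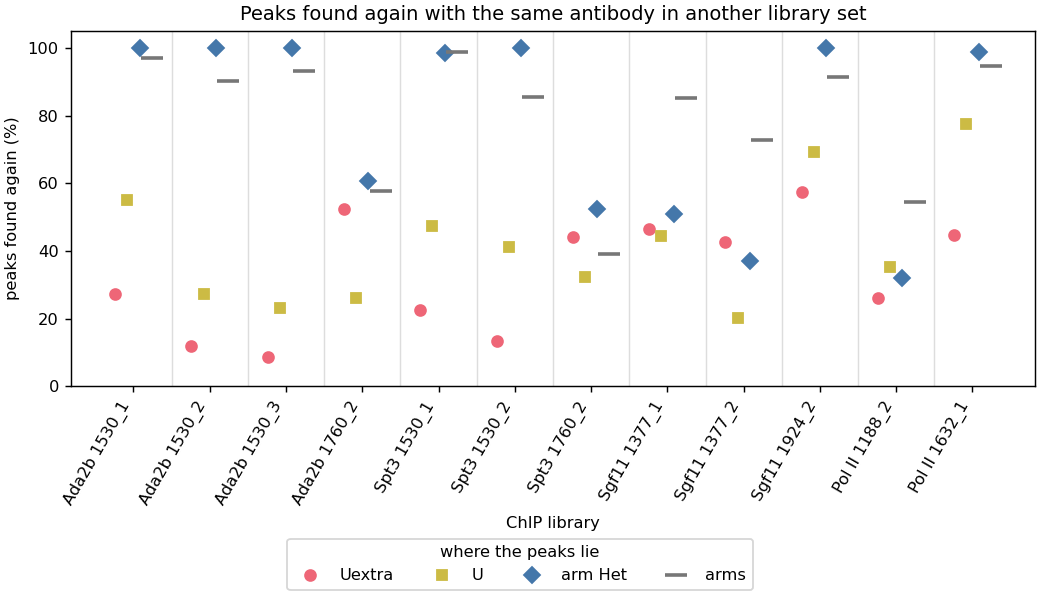
Share of peaks (%) found again with the same antibody in a library of another set, for the 12 libraries whose factor has 2 sets, by where the peaks lie. In the 5 libraries of set 1530 the arm Het points are at 98.6% or above, and the Uextra points at 27.3% or below.

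The same Uextra peaks of set 1530 set the Pol II libraries apart. Of the Uextra peaks of Ada2b 1530_1, 1530_2 and 1530_3, 72.7%, 59.5% and 60.9% overlapped a peak of Pol II 1632_1, but 15.2%, 7.14% and 6.52% one of Pol II 1188_2. For Spt3 1530_1 and 1530_2 it was 55.1% and 62.2% in Pol II 1632_1, against 12.2% and 8.89% in Pol II 1188_2. On arm Het the order was the other way, with 40.6% to 54.8% of the peaks of these 5 libraries in Pol II 1632_1 and 66.7% to 81.0% in Pol II 1188_2. The arms had the same order as arm Het in each of the 5, with 66.7% to 85.9% in Pol II 1632_1 and 74.9% to 91.2% in Pol II 1188_2. In set 1760 the Uextra peaks were found less often in Pol II 1632_1 (23.8% for Ada2b and 24.0% for Spt3) than in Pol II 1188_2 (42.9% and 60.0%).

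Counted as merged regions, 58 regions off the arms had a peak in 4 or 5 of the 5 libraries of set 1530, and 35 of these had none in either library of set 1760. On the arms 4 of 966 such regions had none in set 1760. Of the 35 regions, 26 lay on Uextra, 6 on U and 3 on M, and none on arm Het. Pol II 1632_1 had a peak at 32 of them and Pol II 1188_2 at 3. Sgf11 had a peak at 12 in 1377_1, 14 in 1377_2 and 18 in 1924_2, and Non-stop at 8 in either library. The labels do not say what the set number marks, and its part in this split was not tested.

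Most peaks off the arms were shared with other factors. Off the arms 2313 of 2713 (85.3%) overlapped a peak of another factor, and 86.0 percent of all peaks in the series did. The mean over libraries was 89.0% ± 13.1 off the arms and 92.0% ± 15.3 on the arms, a difference of -2.93 ± 7.02 points (exact sign-flip test, p = 0.149, adjusted p = 0.256). Without Pol II 1632_1, whose peaks were shared more off the arms (75.8%) than on the arms (59.3%), the difference was -4.43 (unadjusted exact p = 0.00146).

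Which factors were shared differed between subunits. Ada2b peaks off the arms overlapped a Non-stop peak in 62.4% ± 14.3 of cases, against 97.2% ± 1.54 on the arms (n = 4). By class, this was 91.5% to 100% of the arm Het peaks of the 4 Ada2b libraries. Of the Uextra peaks it was 33.3%, 28.6% and 26.1% in Ada2b 1530_1, 1530_2 and 1530_3, but 90.5% in 1760_2, where U was low (40.5%). Spt3 peaks overlapped Non-stop in 68.6% and 62.6% of cases off the arms in 1530_1 and 1530_2, against 97.2% and 96.0% on the arms, while in Spt3 1760_2 the shares were 93.1% off the arms and 93.3% on the arms. Sgf11 peaks did so in 73.4% ± 6.72, against 94.5% ± 2.84 on the arms (n = 3). The share of Ada2b peaks that overlapped Spt3 was 83.0% ± 10.2 off the arms and 88.2% ± 2.29 on the arms. Non-stop peaks, in contrast, overlapped Sgf11 in 71.5% ± 1.83 of cases off the arms, against 58.9% ± 4.66 on the arms (n = 2). These shares were not tested singly.

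The overlap with Pol II was the only one of the 12 comparisons that passed after adjustment. Of the 2185 subunit peaks off the arms, 580 (26.5%) overlapped a peak in both Pol II libraries, and 68.1 percent of all subunit peaks did. As a mean over the 12 subunit libraries, the share was 26.1% ± 4.37 off the arms and 70.7% ± 5.68 on the arms. The difference was -44.7 ± 6.16 points and was lower in 12 of 12 libraries (exact sign-flip test, p = 0.000488, the smallest 12 libraries can give, adjusted p = 0.00586). The ranges did not overlap, with 19.5% to 32.2% off the arms and 64.9% to 85.7% on the arms. By factor, the share off the arms was 25.5% ± 5.30 for Ada2b, 26.1% ± 1.05 for Spt3, 23.3% ± 4.85 for Sgf11 and 31.1% ± 1.18 for Non-stop. The shares on the arms were 68.8% ± 1.71, 77.0% ± 7.80, 67.1% ± 2.10 and 70.5% ± 6.44 in the same order of factors.

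The share with both Pol II libraries differed by scaffold class. It was 39.8% ± 8.79 on arm Het, 19.0% ± 9.79 on U and 11.5% ± 7.83 on Uextra (n = 12 libraries each). Chromosome 4, an assembled arm that is itself largely heterochromatic, had 56.5% ± 7.65. On arm Het alone the difference from the arms was -30.9 points, and from chromosome 4 all peaks off the arms differed by -30.5 points, each lower in every library (exact sign-flip test, p = 0.000488 each). On M, where 5 subunit libraries had 5 or more peaks, the share was 64.9% ± 15.1. When a peak in either Pol II library was enough, 60.0% of subunit peaks off the arms had Pol II, against 82.4% on the arms. The order of the unplaced scaffolds was then the other way, with 66.5% on arm Het, 49.6% on U and 55.6% on Uextra.

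**Figure D4:**
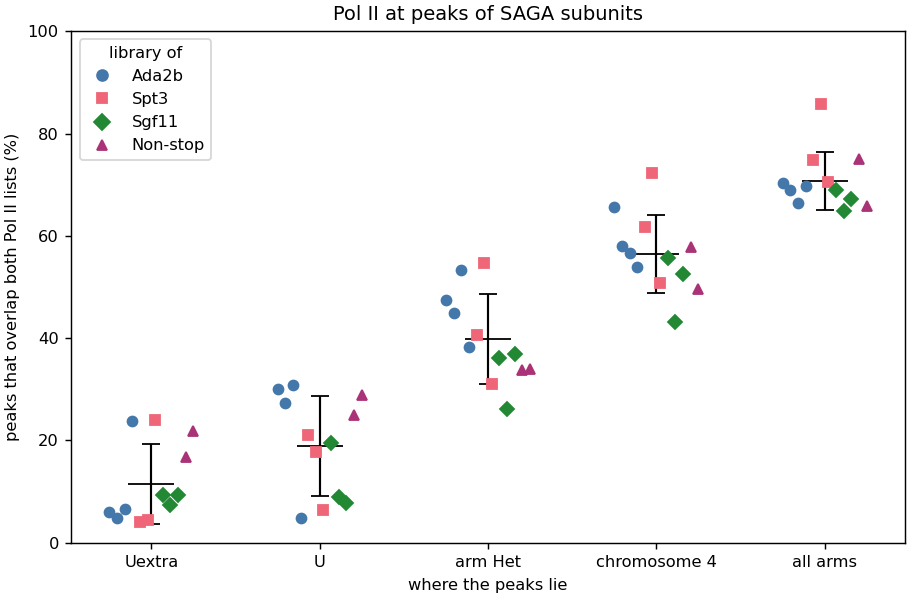
Share of subunit peaks (%) that overlap a peak in both Pol II libraries, by where the peaks lie. Each point is a library, and the bar and whiskers are the mean and SD over the 12 subunit libraries, which run between 11.5% on Uextra and 70.7% on all arms.

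All 12 differences were measured against the same Pol II lists. Those lists covered 9.18% and 14.3% of the arms, but 0.68% and 1.85% of arm Het, 0.13% and 0.29% of U and 0.06% and 0.11% of Uextra. Subunit peaks covered between 0.51% and 5.04% of the arms and between 0.06% and 0.94% of arm Het. The part of this coverage in the result was not tested. With Pol II 1188_2 alone the difference was -37.1 points and with Pol II 1632_1 alone -29.9 points. In the 7 subunit libraries outside set 1530 it was -42.4 points (exact p = 0.0156, the smallest 7 libraries can give). These last comparisons were chosen after seeing the data. Taken as 1 mean per set, the 4 sets gave -43.9 points, where an exact test cannot go below p = 0.125.

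Peaks on M differed between libraries made with the same antibody. The 5 libraries of set 1530 had 3 to 5 peaks on M, which covered between 82.3% and 98.2% of its sequence. Ada2b 1760_2 and Spt3 1760_2, made with the same antibodies, had no peak on M. Sgf11 covered 76.7% in 1377_1 and 62.1% in 1377_2, but 1.03% in 1924_2, where 1 peak of 201 bp was found. Non-stop, of the same set as this Sgf11 library, covered 44.3% and 49.5%. Pol II covered 58.0% in 1188_2 and 56.3% in 1632_1.

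The M peaks of set 1530 were broad and shallow. Their widest ran between 11868 and 16248 bp, and their highest fold enrichment lay between 2.48 and 3.02. The widest peak of Ada2b 1530_1, for instance, ended at base 11869 of M after starting at base 2. Low folds on M were not particular to set 1530. Non-stop 1924_1 had the highest fold enrichment of any library on M, at 6.10. In every other library with a peak on M, the highest fold lay between 1.40 (Pol II 1188_2) and 3.03. The share of reads that fell on M was not analysed here.

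**Figure D5:**
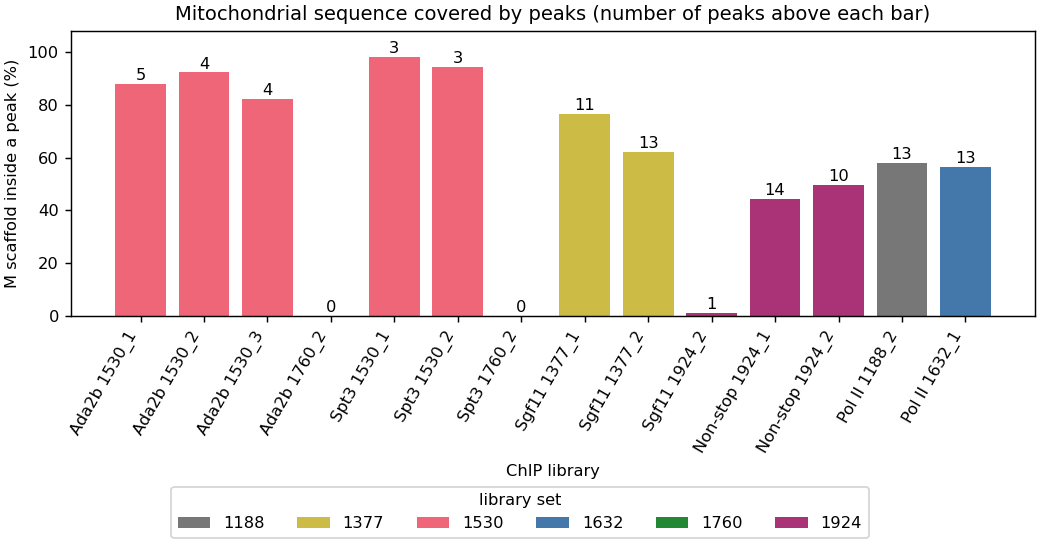
Share of the M scaffold (%) that lies inside a peak in each library, coloured by library set, with the number of peaks above each bar. Set 1530 lies between 82.3% and 98.2%, and both libraries of set 1760 lie at 0.

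All peaks off the arms joined into 682 regions, of which 405 (59.4%) had a peak in 2 or more libraries. The background over all 14289 regions of the series was 61.1 percent. Of the regions off the arms 119 (17.4%) had a peak in 7 or more libraries, against 27.4% on the arms. By class this was 23.8% on arm Het, 13.4% on Uextra and 9.94% on U. All 5 factors were found at 75 regions (11.0%), against 20.7% on the arms, and 53 of these 75 lay on arm Het. Subunits without any Pol II peak were found at 333 regions (48.8%), against 21.5% on the arms. Sgf11 alone was found at 81 regions (11.9%), against 2.59% on the arms, with 29 of these on U and 31 on Uextra. Ada2b alone was found at 8 regions (1.17%, against 0.50% on the arms), Spt3 alone at 18 (2.64%, against 1.48%) and Non-stop alone at 47 (6.89%, against 6.92%). A factor counted as alone here from a peak in any 1 of its libraries. Only 2 of the 81 Sgf11 regions and 12 of the 47 Non-stop regions had a peak in every library of the factor, and no Ada2b or Spt3 region did. Without set 1530 there were 671 regions, 377 of them in 2 or more libraries.

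The region with the highest mean score percentile among the regions named here was on Uextra (dm3 bases 5223892 to 5224555, 664 bp). It had a peak in all 14 libraries, with a mean percentile of 90.6. Its fold enrichment was 3.58, 10.4, 9.86 and 4.48 for Ada2b in 1530_1, 1530_2, 1530_3 and 1760_2, and 5.98, 9.91 and 9.61 for Spt3 in 1530_1, 1530_2 and 1760_2. It was 18.0, 4.32 and 27.0 for Sgf11 in 1377_1, 1377_2 and 1924_2, 17.6 and 15.9 for Non-stop, and 10.4 and 9.78 for Pol II. In both Non-stop lists and in Sgf11 1377_1 it was the best-scoring peak of the whole list. The libraries of Sgf11 disagreed here more than at the other regions named, with 1377_2 low.

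Regions were named by their recurrence, so their high number of libraries is how they were chosen. Besides the Uextra region, 5 regions had a peak in all 14 libraries, and all were on arm Het. On 3LHet, bases 1395033 to 1397225 had a mean percentile of 84.4. Its fold enrichment was 15.0 and 13.3 for Non-stop and 8.60, 5.17 and 9.26 for Spt3, against 5.81 and 2.03 for Pol II, and Pol II had the lowest mean of the 5 factors. The others on 3LHet were bases 2189357 to 2191329 (mean percentile 76.2) and 2386474 to 2387227 (75.3). On 3RHet bases 1821643 to 1825749 (77.6) and on 2RHet bases 468467 to 472470 (70.5) were the remaining regions in every library. At all 5, Non-stop ranked high, with mean percentiles of 99.7, 97.6, 90.1, 98.2 and 95.6 in the order given.

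At some regions the fold enrichment differed between factors. Folds of different antibodies were not on the same scale. On the arms the median fold was 4.33 to 5.24 in the Sgf11 libraries, against 2.45 to 3.12 for Ada2b, Spt3 and Non-stop. On XHet, bases 84294 to 85195 had fold enrichments of 14.3, 20.3 and 19.7 for Sgf11 and 11.1 and 11.4 for Non-stop. Ada2b had a peak there in only 1530_1 and 1760_2 (2.39 and 2.49), Spt3 in 1530_1 and 1760_2 (2.87 and 3.95) and Pol II in 1188_2 (4.90). The deubiquitinase values did not overlap those of the other subunits. By mean score percentile Sgf11 (97.2) and Non-stop (96.3) also lay above Spt3 (66.3) and Ada2b (30.6). On Uextra, bases 26834999 to 26835626 had Sgf11 at 9.70, 13.5 and 15.7, Non-stop at 10.1 in both libraries and Ada2b between 3.03 and 4.92 in its 4 libraries, with no Spt3 peak in any of 3 libraries. On 3RHet, bases 1516698 to 1517386 were higher for Ada2b (4.79 to 6.27) than for Spt3 (3.51 to 4.65), with Sgf11 at 8.04, 15.2 and 7.02. Non-stop, at 4.93 and 3.83, lay below Sgf11 in fold there and within the range of Ada2b and Spt3. The order by mean score percentile differed, with Ada2b at 89.7, Spt3 at 85.4, Sgf11 at 80.6 and Non-stop at 75.8. The percentile ranges of Sgf11 and Non-stop overlapped.

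All 4 subunits without a Pol II peak were found at 28 regions (4.11%, against 3.34% on the arms), of which 19 lay on arm Het, 5 on U and 4 on Uextra. Among the regions named, 2 of these were on U. Bases 2902960 to 2903528 had a peak in all 12 subunit libraries and in neither Pol II library. There Non-stop had folds of 7.49 and 8.55 and Spt3 5.18, 3.48 and 7.53, against 2.36 to 4.81 for Ada2b. Bases 6218487 to 6218988 had peaks in 11 subunit libraries, with Sgf11 at 8.44, 11.8 and 10.9, and no Pol II peak. The third named region on U, bases 5297598 to 5303625, was broad, at 6028 bp. It had a peak in all 5 libraries of set 1530, in Sgf11 1377_1 and 1377_2, and in both Non-stop and both Pol II libraries. Set 1760 and Sgf11 1924_2 had none. Peak folds lay between 1.27 and 5.34 wherever it was called, the highest in Non-stop 1924_1, and reached 2.53 in set 1530.

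At the other named regions on the arm Het scaffolds with peaks of more than 1 factor, Non-stop or Pol II had the highest mean fold. By mean score percentile the highest was Non-stop, Pol II or Spt3. On 2LHet, 3 regions (bases 166357 to 169372, 34391 to 36661 and 30978 to 33499) had peaks in 12, 11 and 11 libraries, and at all of them Ada2b 1530_2 and 1530_3, the shortest lists, had none. On YHet 1 region, bases 305171 to 305604, had a peak in Sgf11 1377_2 (5.36), Sgf11 1924_2 (4.52) and Pol II 1188_2 (3.71). A total of 2 regions had a peak in every Sgf11 library and in no library of another factor. The higher-ranked one, on Uextra at bases 289085 to 289421, had folds of 3.74, 5.68 and 4.11. The other, on 2LHet at bases 204791 to 205078, had folds of 3.07, 4.30 and 2.85. For Non-stop 12 regions and for Pol II 22 regions met this rule, and for Ada2b and Spt3 none did. Which genes lie at these regions, and their sequence, was not analysed here.

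Reference sites were formed by the study's rule, under which a peak had to occur in 3 or more Ada2b libraries, or in 2 or more Spt3 or Sgf11 libraries. Over the whole series this gave 1071 sites with all 3 subunits, 3027 with Sgf11 alone and 115 with Ada2b alone. The paper reports more sites of the first and last kind and fewer with Sgf11 alone. Why the counts differ was not analysed. Off the arms there were 240 of the 5890 sites of the series (4.07%), with 125 on arm Het, 72 on Uextra, 39 on U, 3 on M and 1 on YHet. Sgf11 alone was the largest class with 103 sites (42.9%), and the background over all reference sites was 51.4 percent. All 3 subunits were found at 37 sites (15.4%), where the background was 18.2 percent. Spt3 with Sgf11 was found at 53 sites (22.1%, against 16.1% on the arms) and Spt3 alone at 24 (10.0%, against 4.78% on the arms). Ada2b alone was found at 5 sites (2.08%, against 1.95% on the arms) and Ada2b with Sgf11 at 3 (1.25%, against 6.41% on the arms). Without Spt3 1530_1, Spt3 alone was found at 2 sites, all 3 subunits at 23 and Ada2b alone at 20. Without Spt3 1530_2 these counts were 14, 21 and 20, and without Spt3 1760_2 Spt3 alone was found at 12. Without Ada2b 1530_2 or 1530_3, with the Ada2b rule set to 2 libraries, all 3 subunits were found at 75. Without Ada2b 1530_1 or 1760_2, Ada2b alone was found at 12. Without Sgf11 1377_1 or 1377_2, Sgf11 alone was found at 55 or 39 sites, and Spt3 alone at 54 or 55.

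Sites with Ada2b and Spt3 but not Sgf11 made up 15 of the 240 sites (6.25%), where the background was 0.934 percent, and 27.3% of the 55 such sites in the series. Of the 15, 12 lay on Uextra and 3 on U. At all 15 each of the 5 libraries of set 1530 had a peak, and neither library of set 1760 had one at any of them. Pol II 1632_1 had a peak at all 15 and Pol II 1188_2 at none. Sgf11 had a peak in 1 of its libraries at 7 of them, at 6 in 1924_2 and at 1 in 1377_1, and Non-stop had a peak at 1. Their folds were low, between 1.43 and 2.72 for Ada2b (median 1.79) and between 1.46 and 2.50 for Spt3 (median 1.73). Set 1530 alone holds enough libraries to meet the rule for both factors, and without Spt3 1530_1 or Spt3 1530_2 no such site remained. Without Sgf11 1377_1 or 1377_2 there were 23 or 25. The 40 sites of this kind on the arms had Pol II in both libraries at 92.5%, against none of the 15 off the arms.

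Pol II was in both libraries at 47 of the 240 sites off the arms (19.6%), where the background was 65.9 percent. This was 30.4% on arm Het, 10.3% on U and 5.56% on Uextra, against 67.9% on the arms. At sites with all 3 subunits it was 16 of 37 (43.2%), against 79.2% on the arms, and at Sgf11 alone sites 10 of 103 (9.71%), against 61.5% on the arms. Non-stop was in both libraries at 151 sites (62.9%), where the background was 77.0 percent. On arm Het Non-stop was at 80.8% of sites, above the 77.6% of the arms, and on Uextra at 36.1%. The 53 Spt3 and Sgf11 sites had Non-stop at 52 (98.1%), 41 of the 53 being on arm Het.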

How the data were processed

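The data were 14 ChIP-seq peak lists, 1 for each library. In the methods of the study, single reads were aligned to dm3 by bowtie, dropping those with more than a few alignments and reporting 1 place for the others, and MACS2 called the peaks under its defaults. CASAVA 1.8.2 is also named in the submitters' processing notes, and other versions were not given in the sources used here. The methods cover Ada2b, Spt3 and Sgf11, and the labels list the same tools for all. The control for peak calling is not stated. For each peak the authors deposited a score that follows the q-value, a fold enrichment (the ratio of ChIP signal over the caller's background at the summit), a −log10 p-value and a −log10 q-value. The lists stopped at a −log10 q between 2.01 and 2.29.

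Peaks were kept as called, coordinates are 1-based, and 1 bp of overlap counted as shared. Scores were ranked within a list. Classes with under 5 peaks in a library gave no value to a test. Comparisons used the exact permutation of libraries or the exact sign-flip of within-library differences, two-sided, threshold 0.05, with Benjamini-Hochberg adjustment over 12 tests. Regions were named by rule: on each scaffold the 3 with a peak in the most libraries, ties by mean score percentile, each in 2 or more libraries, and for each factor the 2 with a peak in all its libraries and in none of another factor. Members, classes and tests were chosen with earlier results of these data known. Python 3.11.15, NumPy 2.4.6, pandas 2.3.3, SciPy 1.17.1 and matplotlib 3.10.9 were used. Interval operations and tests were checked on simulated lists and against bedtools 2.31.1. Depth per library is unknown, so the number of libraries limits the precision.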

Additional observations from a re-analysis of the deposited data

Results flagged for a closer look

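In 12 groups of 4 to 10 libraries no library lay beyond the 95% limit of Dixon's criterion. Among 66 pairs of factors compared for the sign of an effect, 10 had every library of one factor above 0 and every library of the other below 0. None could pass a test, since the smallest exact permutation p of the pair was 0.1 for Spt3 against Sgf11, 0.2 for other pairs of 3 against 2 and 0.333 for 2 against 2. With so few libraries such a pattern also arises by chance.

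For the score percentile (off the arms minus arms), Spt3 minus Sgf11 was 27.3 points and Spt3 minus Pol II 14.3 points. Sgf11 minus Non-stop was -21.8 points, although both belong to the deubiquitinase module, and Non-stop minus Pol II was 8.82 points. For the log2 fold enrichment (off the arms minus arms), Spt3 minus Sgf11 was 0.47, Spt3 minus Pol II 0.15, Sgf11 minus Non-stop -0.60 and Non-stop minus Pol II 0.28. For arm Het minus U and Uextra in score percentile, Sgf11 minus Pol II was 18.4 points and Non-stop minus Pol II 7.80 points.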

How the results depend on the processing

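The Pol II difference kept its direction under all alternatives and passed the threshold under all but 1 mean per set (-43.9 points, smallest p 0.125). Of 326 alternatives of 20 results, 253 kept direction and side of the threshold or stayed within 1.5 times the count. The width difference was -0.32 with 1 mean per set (p = 0.0625, exact sign-flip).

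Pol II minus subunits kept its sign in the share off the arms (-2.27 to -0.96 without 1 library), and the other 4 differences between factors changed theirs. Ada2b minus Sgf11 was -0.55 without U and Uextra, and the deubiquitinase difference 0.046. Leaving out 1 library gave -1.88 to 0.087 (without Spt3 1530_1) for Ada2b minus Spt3, -0.61 to 0.63 for Ada2b minus Sgf11 and -0.039 (without Spt3 1530_1) to 1.93 for Spt3 minus Sgf11. Pol II minus subunits was below the threshold before adjustment by covered bases (-3.58) and with equal numbers of top peaks (-3.15), each at an exact permutation p of 0.0220. With equal numbers of top peaks the deubiquitinase difference was too (-2.94, unadjusted exact permutation p = 0.0101). No Pol II library shares a set with a subunit library, so set and factor cannot be told apart there. Pairing libraries of 1 number (replicate block) gave -1.33 for Ada2b minus Spt3 (exact p = 0.25, its smallest). The paired differences were -3.39, -0.50 and -0.10. Same-numbered pairs correlated at 0.08, 0.32 and 0.43 over 5890 sites, where Spt3 1530_1 correlated best with Ada2b 1530_3 (0.17), and at 0.18, 0.57 and 0.64 over the 240 sites off the arms, where each library of a pair correlated best with its own number. The labels do not say what the number marks, and the numbers were not taken as pairs.

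The score difference was -3.73 for U and Uextra, -6.88 against chromosome 4, -1.08 with 1 mean per set, -2.82 outside set 1530 (chosen after seeing the data) and -0.38 to 2.32 without 1 library. The fold difference was 0.065 on arm Het, -0.23 on U and Uextra, -0.19 against chromosome 4, -0.12 outside set 1530, -0.17 for peaks with −log10 q of 5 or more and -0.14 to -0.089 without 1 library. Recurrence was 1.77 on arm Het, -14.0 on U and Uextra, -7.38 against chromosome 4, -20.4 when every other library had to have the peak, -28.8 across sets, -45.7 across sets on U and Uextra (-28.4 outside set 1530), -7.29 outside set 1530 and -7.56 to -4.63 without 1 library. Sharing with other factors was -4.97 against chromosome 4, -4.64 for peaks above the median score, -4.77 with other sets alone (chosen after seeing the data), -2.73 outside set 1530, -1.05 on arm Het, -0.99 with 1 mean per set (p = 0.812, exact sign-flip) and -4.43 to -1.97 without 1 library. Arm Het minus U and Uextra was 3.47 against U alone, 3.90 with 1 mean per set, 4.43 outside set 1530 and 5.28 to 8.91 without 1 library. Reference sites off the arms numbered 112 with every library required and 106 above the median score, and regions 344.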
